A study of Homo sapiens with 4 samples.

Results

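The genes described here encode the protein components of the cytosolic ribosome. They were taken by symbol: RPLP0, RPLP1, RPLP2, RPSA, and RPL or RPS followed by a number with at most a short suffix, without pseudogenes, Y-linked copies or the S6 kinases. Of 19483 genes that could be named on the array, 85 met this rule. They had 158 probes, of which 156 probes, in 84 genes, were well above background on all 4 arrays. The large (60S) subunit contributed 52 detected genes with 97 probes and the small (40S) subunit 32 genes with 59 probes. RPL39L, a copy of RPL39, had 1 probe and was not well above background on any array, and the same held for 1 of the 4 probes of RPL28.

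The cells were HuCCT1, an established human intrahepatic cholangiocarcinoma line. They were transfected with 30 nM of a mature miR-376c-3p mimic (miR-376c), its negative control oligonucleotide (miControl), a siRNA against GRB2 (siGRB2) or a non-silencing siRNA (siControl). All 4 transfectants were moved after 24 h to medium with 0.1% serum and 5 ng/ml EGF for 24 h. RNA of each was hybridized to 1 one-colour array, so no value of a condition has a replicate, and no p-values are given. How precise a comparison can be is limited by having 1 array on each side. The study asked which mRNAs both treatments affect in EGF-treated cells. GRB2 is the adaptor that links the activated EGF receptor to RAS. The sequence that carries the treatment is the mature miRNA, shown with its seed (bases 2 to 8) in capitals, as given by RefSeq at chr14:101039732-101039752 on the plus strand of GRCh38.p14.
hsa-miR-376c-3p: aACAUAGAggaaauuccacgu

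Ribosomal proteins are made in balanced amounts from a large set of unlinked genes, and their mRNAs are among the most abundant of a growing cell. In vertebrates most of these mRNAs begin with a C and a run of pyrimidines, the terminal oligopyrimidine (TOP) tract, through which mTOR signalling, itself downstream of growth factor receptors, sets how fast they are translated. RPS6 is the classical substrate of the S6 kinases in the same pathway. An mRNA array reads the amount of transcript and not its translation.

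The start of transcription is shown for 10 members, since the pyrimidine tract is the sequence that this group is known for. The windows hold 40 bases before and 20 bases from the RefSeq start, on GRCh38.p14, and capitals mark the run of pyrimidines at the start.
RPLP0 (chr12:120201092-120201151, minus strand): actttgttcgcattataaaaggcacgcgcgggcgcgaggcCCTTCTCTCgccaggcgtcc
RPLP1 (chr15:69452778-69452837, plus strand): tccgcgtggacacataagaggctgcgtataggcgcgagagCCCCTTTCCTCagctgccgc
RPLP2 (chr11:809927-809986, plus strand): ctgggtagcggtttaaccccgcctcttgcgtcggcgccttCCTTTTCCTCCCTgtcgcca
RPS6 (chr9:19380217-19380276, minus strand): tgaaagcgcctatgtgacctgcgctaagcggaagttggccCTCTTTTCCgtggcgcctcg
RPSA (chr3:39406680-39406739, plus strand): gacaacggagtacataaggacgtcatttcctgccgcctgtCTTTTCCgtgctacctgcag
RPL22 (chr1:6199576-6199635, minus strand): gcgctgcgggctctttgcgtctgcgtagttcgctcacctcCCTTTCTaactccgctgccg
RPL22L1 (chr3:170870176-170870235, minus strand): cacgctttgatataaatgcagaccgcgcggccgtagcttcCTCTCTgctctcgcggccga
RPS27L (chr15:63157458-63157517, minus strand): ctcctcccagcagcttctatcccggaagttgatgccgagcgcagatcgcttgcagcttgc
RPL10L (chr14:46651762-46651821, minus strand): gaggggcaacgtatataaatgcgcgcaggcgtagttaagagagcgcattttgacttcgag
RPL7L1 (chr6:42879576-42879635, plus strand): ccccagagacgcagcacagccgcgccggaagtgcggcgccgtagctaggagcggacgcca

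A promoter entry was matched for 68 of the 85 members. A C at the start with at least 4 pyrimidines after it was found in 43 of them (63.2%), against 4.60% of all 15843 protein-coding promoters. In the windows above, the tract is seen in the 3 stalk proteins, in RPS6, RPSA and RPL22, and in RPL22L1, which was the only 1 of the 6 matched paralogs with an L, L1 or AL suffix that had it. RPS27L, RPL10L and RPL7L1 have no capitals, since their annotated starts hold no such run. The shorter string CTTTC lay on the sense strand within 10 bases of the start in 36.8% of members and 3.12% of all promoters. It can overlap the tract above. CGGAAG, the core bound by ETS factors, stood on either strand of the 300 bases in 61.8% of members and 25.6% of all promoters. It is visible before the start of RPS6, RPS27L and RPL7L1. TATAAA, the TATA box string, was found in 10.3% and 9.63%. Among genes outside the family, the tract was present in 6 of 8 matched translation factors, 3 of 25 ribosome assembly genes and 5 of 69 mitochondrial ribosomal proteins.

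Levels are log2 processed signals from which the 75th percentile of the array's spots was subtracted, so that 0 is the 75th percentile. The 75th percentile signal was 1719 to 2689, and no spot was saturated. The keratins and other biliary epithelial markers (6 of 6) were detected on all arrays, with a summed signal of 1656765 to 2029725. Detected on all 4 arrays were 1 of 4 hepatocyte markers (APOA1), 2 of 3 leukocyte markers (CD14 and PTPRC), 2 of 3 endothelial markers (CDH5 and VWF) and 1 of 3 fibroblast markers (COL1A1), of which CD14 had levels of -2.08 to -1.85. ALB, TTR, COL1A2 and DCN were not well above background on any array. The summed signals of these 4 lists were 111 to 851. GRB2 had a level of 0.62 with miControl, 0.07 with miR-376c, -0.10 with siControl and -0.65 with siGRB2. It was thus lower by 0.55 on the log2 scale with each treatment against its own control, and the miControl and siControl arrays themselves lay 0.72 apart.

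Nearly all ribosomal protein probes gave a strong signal. Of the 156 detected, 149 lay above the 75th percentile on every array, and the other 7 did not on at least 1 array. The highest member signal per array was 512601 to 629212, below the saturation value of 780069.

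Between the arrays, the ribosomal protein genes differed little. A 2-fold limit, the one used in the study, was passed by no member probe in 4 of the 6 possible pairs of arrays and by a single probe, of RPL10, in the other pairs. The plot of genes by array shows what differences there were: miControl (grey) was mostly to the left in both subunits, and siControl was at one end or the other.

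With miR-376c against miControl, ribosomal protein probes were on the whole slightly higher, by a median of 0.10 log2 (interquartile range -0.02 to 0.24), and 115 of 156 were above 0. Of all 21239 detected probes, 46.4% were above 0, with a median of -0.03. Among the 6718 probes that exceeded the 75th percentile on every array (bright probes), which are closer to the members in brightness, the median was 0.02. At 2-fold 0 members passed (1.33% of all detected probes), and at 1.5-fold 2 passed, both lower (8.92% of all detected and 3.44% of the bright probes). These 2 were a probe of RPL37 (-0.78) and one of RPL28 (-0.74). The direction of the list depended on the scaling: under quantile normalization, which forces the same distribution on all arrays, the median was -0.06.

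With siGRB2 against siControl, members were evenly split on the 75th percentile scale. The median was -0.0011 (interquartile range -0.14 to 0.24), with 78 of 156 above 0, against 60.4% above 0 and a median of 0.15 for all detected probes. The bright probes had a median of -0.04. The member median moved with the scaling, to -0.29 with arrays shifted to their median and to 0.10 with the bright probes centred. At 2-fold 0 members passed (8.23% of all detected), and at 1.5-fold 5 passed, all higher (32.1% of all detected, 23.4% of the bright probes). They were 2 probes of RPL29 (0.92 and 0.64) and 1 each of RPL13A (0.84), RPL28 (0.62) and RPL6 (0.59). RPL13A is named for this count after its values were seen.

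In their ribosomal protein probes, the treated arrays were the most alike of the 6 pairs by SD. Over all detected probes siGRB2 and miControl were slightly closer (SD 0.31). For siGRB2 against miR-376c the member median was 0.01 (interquartile range -0.04 to 0.06), and 86 of 156 were above 0 (all detected probes 60.1%, median 0.06). The SD over member probes was 0.16, against 0.32 over all detected probes. One probe of RPL10 was 2-fold higher (1.19% of all detected), and it was also the only one past 1.5-fold (6.31% of all detected, 2.28% of the bright probes).

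Each treatment was then set against the other control. With siGRB2 against miControl, the member median was 0.13 (interquartile range 0.04 to 0.24) and 125 of 156 were above 0, compared with 55.7% of all detected probes (median 0.04). At 2-fold 0 members passed (1.09%), and at 1.5-fold 2 did (5.81% of all detected, 2.05% of the bright probes), RPL10 higher (0.97) and RPL37 lower (-0.71). With miR-376c against siControl the median was 0.01 (interquartile range -0.15 to 0.21) and 79 of 156 were above 0, compared with 57.2% (median 0.09). The RPL10 probe was 2-fold lower (5.87% of all detected), and 7 passed 1.5-fold, 2 lower and 5 higher (26.1% of all detected, 20% of the bright probes).

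Between the negative controls the member probes had their widest spread of the 6 pairs, with an SD of 0.34. For miControl against siControl the member median was -0.17 (interquartile range -0.32 to 0.13), and 53 of 156 were above 0, where 57.9% of all detected probes were, with a median of 0.11. At 2-fold 0 members passed (7.76%), and at 1.5-fold 12 passed, 3 lower and 9 higher (28.6% of all detected, 20.8% of the bright probes). Under quantile normalization this median was 0.07, on the other side of 0. The miR-376c and siGRB2 comparisons that share an array with this pair are not independent of it.

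**Figure D1:**
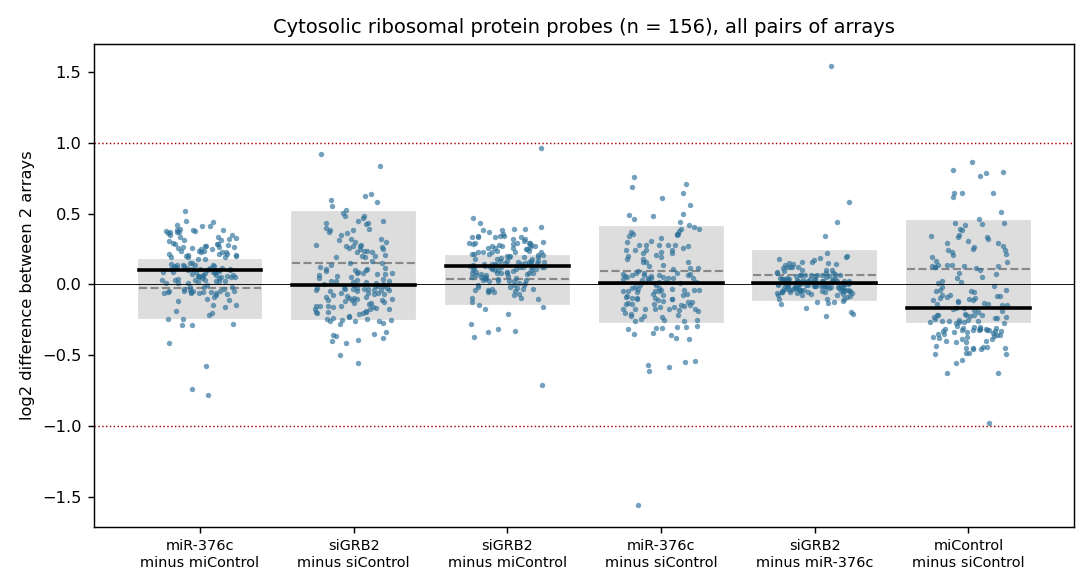
Log2 differences of the 156 detected ribosomal protein probes (blue points) for the 6 pairs of arrays, with the member median as a black line. The grey box is the interquartile range and the dashed line the median of all 21239 detected probes, and the red dotted lines mark 2-fold; the member median lies above the dashed line in the pairs of each treatment with miControl and below it in the other 4 pairs, and the points are tightest for siGRB2 minus miR-376c.

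The distance of the member median from the median of all detected probes does not move with the centring of the arrays. It was 0.13 for miR-376c against miControl, 0.10 for siGRB2 against miControl, -0.16 for siGRB2 against siControl, -0.08 for miR-376c against siControl, -0.05 for siGRB2 against miR-376c and -0.27 for miControl against siControl. Under quantile normalization the sign turned in 5 of the 6 pairs: the distances were -0.06, -0.03, 0.03, 0.03 and 0.07 for the pairs in this order without siGRB2 against miR-376c, which was at -0.0036. With normexp background correction they kept their sign but moved to 0.05, 0.01, -0.12, -0.01, -0.09 and -0.11 for all 6 pairs in the same order. The scanner software's own error of a difference was 0.20 log2 for most member probes. Past it lay 60 of 156 members for miR-376c against miControl (47.7% of all detected probes), 67 for siGRB2 against siControl (71.9%), 8 for siGRB2 against miR-376c (42.4%) and 106 for miControl against siControl (69.5%).

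The array on which a member was lowest was most often miControl, for 84 of 156 probes (53.85%), compared with 26.4% of the bright probes. It was siControl for 48 (30.8%, bright probes 32.0%), miR-376c for 16 (10.3%, bright probes 22.5%) and siGRB2 for 8 (5.13%, bright probes 19.1%). The highest array was siControl for 68 probes (43.6%, bright probes 44.1%) and siGRB2 for 41 (26.3%, bright probes 24.2%). It was miR-376c for 31 (19.9%, bright probes 18.2%) and miControl for 16 (10.3%, bright probes 13.6%). This order holds for the 75th percentile scale, and under quantile normalization the member medians against miControl were -0.06 with miR-376c and -0.03 with siGRB2.

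On the 75th percentile scale, the size of a member's difference moved with its brightness. Over the 149 bright member probes, the difference of miR-376c from miControl had a Pearson r of 0.70 (Spearman 0.76) with the mean level over the 4 arrays, and that of miControl from siControl an r of -0.60 (Spearman -0.63). For siGRB2 against miControl r was 0.65, for siGRB2 against siControl -0.36, for siGRB2 against miR-376c -0.27 and for miR-376c against siControl -0.25. These correlations are across probes of the same arrays, whose levels are part of both measures, and are descriptions only. All 47 member probes with a level of 7 or more were higher with miR-376c than with miControl, by a median of 0.27, and so were all 36 other probes of that level, by a median of 0.38. At levels of 6 to 7 the medians were 0.11 for 61 members and 0.11 for 164 other probes. Of the bright probes below a level of 5, the 21 members had a median of -0.07 and the others 0.01. For miControl against siControl the probes of level 7 or more had medians of -0.32 for members and -0.38 for the others. At levels of 5 to 6 the members (0.22) and the other probes (-0.12) lay on opposite sides of 0, as did the bright probes below 5 (0.13 and -0.09). At a level of 7 or more, members in these 2 pairs thus lay on the same side of 0 as other probes of their brightness. The part of signal level in the list's differences beyond these values was not tested.

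**Figure D2:**
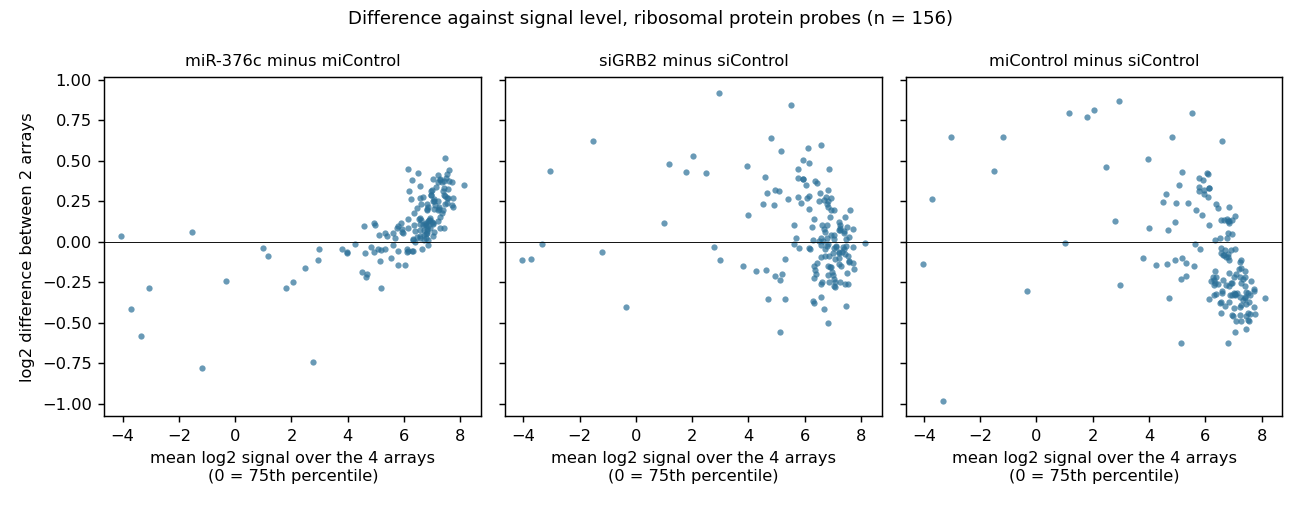
Log2 difference between 2 arrays (vertical axis) against mean log2 level over the 4 arrays (horizontal axis, 0 is the 75th percentile) for the 156 detected ribosomal protein probes, in 3 pairs of arrays. With miR-376c minus miControl all probes of level 7 or more lie above 0, with siGRB2 minus siControl they lie around 0, and with miControl minus siControl nearly all lie below it.

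Both subunits showed the same picture. For miR-376c against miControl, 68 of 97 large subunit probes and 47 of 59 small subunit probes were above 0, with medians of 0.09 and 0.11. For siGRB2 against siControl, 51 of 97 and 27 of 59 were above 0, with medians of 0.01 and -0.02. The subunits' medians also lay close for miControl against siControl, at -0.14 and -0.18. Grouped by the start of the gene, the 43 genes with the pyrimidine tract and the 25 without it had medians of 0.13 and 0.13 for miR-376c against miControl, -0.04 and 0.02 for siGRB2 against siControl, and -0.22 and -0.21 for miControl against siControl. The interquartile ranges of these groups overlapped in every pair of arrays.

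Among single genes, the acidic stalk of the 60S subunit, which recruits elongation factors, is made of RPLP0, its anchor, with RPLP1 and RPLP2. Its 4 probes were all higher with miR-376c than with miControl, by 0.09 to 0.44. Probes outside the family at similar levels were mostly higher too: all 36 of level 7 or more, and 120 of 164 at levels of 6 to 7. RPLP1 was higher by 0.41 with miR-376c and lower by 0.14 with siGRB2 against siControl, and RPLP2 was higher by 0.23 and by 0.10. Under quantile normalization RPLP1 kept 0.13 and RPLP2 0.08 against miControl, but the median of the RPLP0 probes was -0.05. With siGRB2 against siControl, the median shift put RPLP2 at -0.18 and RPLP0 at -0.05.

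RPLP0, RPS6 and RPL30, a further 60S protein, each have a probe printed 10 times on every array, which gives an error within an array. Spots of 1 array are technical repeats of 1 RNA and not replicates of a condition. RPLP0 read 6.91 ± 0.05 with miControl, 7.001 ± 0.051 with miR-376c, 6.78 ± 0.04 with siControl and 7.05 ± 0.06 with siGRB2 (SD of 10 spots). This RPLP0 probe was lowest with siControl. There its spots overlapped neither those with siGRB2 (difference 0.27, SE 0.02) nor those with miR-376c (0.22, SE 0.02). With miControl its spots overlapped those of every other array. The other, brighter probe of RPLP0 was lowest with miControl instead, at 7.33 against 7.57 with siControl. RPS6 read 7.18 ± 0.14 with miControl, 7.47 ± 0.11 with miR-376c, 7.51 ± 0.14 with siControl and 7.47 ± 0.14 with siGRB2 (SD of 9 or 10 spots). Its spots with miControl overlapped those of each other array, although the mean was lower by 0.29 to 0.34. RPL30 read 6.52 ± 0.09, 6.60 ± 0.06, 6.57 ± 0.08 and 6.59 ± 0.07 in the same order, with overlapping spots in every pair of arrays. Against miControl, the mean differences with miR-376c were 0.09 (SE 0.02) for RPLP0, 0.29 (SE 0.06) for RPS6 and 0.07 (SE 0.03) for RPL30. These errors leave out the spread between cultures. Overlap and SE were taken without matching spots by their order on the array. The spots shared a pattern across arrays: in RPL30, spot 1 was highest and spot 5 lowest on every array. In spot order, every RPS6 and RPLP0 spot was higher with siGRB2 than with miControl, and RPL30 spots went both ways. Overlap alone thus does not show that arrays read alike.

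**Figure D3:**
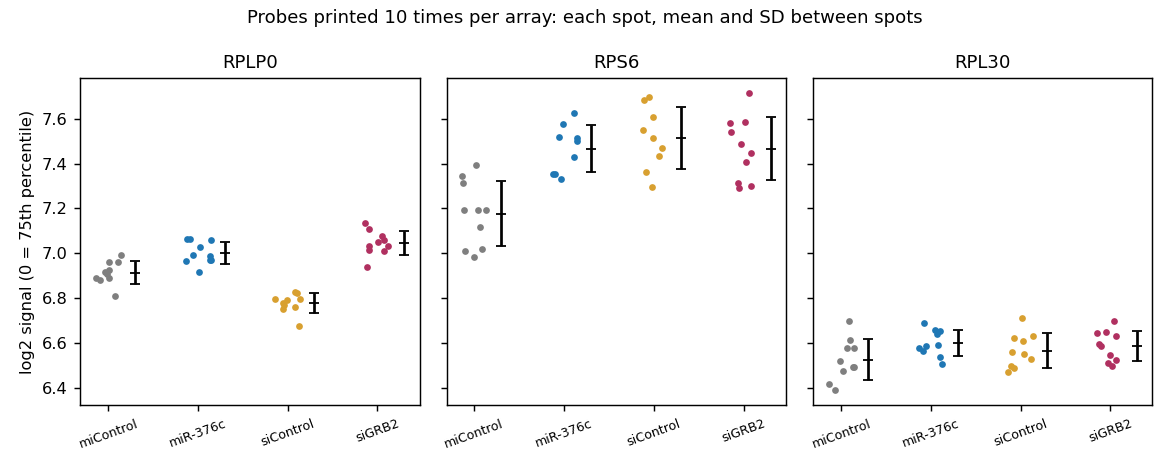
The 3 ribosomal protein probes printed 10 times per array, with 1 point per spot in log2 level (0 is the 75th percentile) and the mean ± SD between spots in black. RPLP0 spots with siControl lie below those with siGRB2 and miR-376c, RPS6 is lowest with miControl with overlapping spots, and RPL30 spots overlap between all arrays.

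The members farthest from 0 with miR-376c against miControl were RPL19, a 60S protein at the interface with the 40S subunit, at 0.52, RPS27A, which is made as a fusion with ubiquitin, at 0.45, and RPLP1. RPL19 read 7.09 with miControl, 7.61 with miR-376c, 7.55 with siControl and 7.57 with siGRB2. RPS27A read 5.86, 6.31, 6.22 and 6.18 in the same order. In both genes miControl was the lowest array, and under quantile normalization the difference of miR-376c from it was 0.21 for RPL19 and 0.39 for RPS27A. RPL7A, a 60S protein, read 7.18, 7.56, 7.40 and 7.55. Quantile normalization left it 0.07 higher with miR-376c than with miControl and put miControl 0.12 above siControl. At the other end were RPL27A (-0.41), RPL37 (-0.33) and RPL22 (-0.24), all of the 60S subunit. The only probe of RPL27A was dim, at -3.45 with miControl, -3.86 with miR-376c, -3.72 with siControl and -3.82 with siGRB2.

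With siGRB2 against siControl the highest genes by probe median were RPL29 (0.57), the paralog RPL7L1 (0.48) and RPS26 (0.40). The brightest probe of RPS26 was lower instead, at -0.50. The lowest genes were the paralog RPL22L1 (-0.55), RPL38 (-0.40) and RPS9 (-0.37). RPL38 is a 60S protein known for its role in translating Hox mRNAs, and it read 7.23 with miControl, 7.46 with miR-376c, 7.77 with siControl and 7.37 with siGRB2. RPS9, which lies near the mRNA entry of the 40S subunit, had 2 probes that agreed closely, at -0.38 and -0.35. RPS14, a 40S protein whose loss is known from an acquired anaemia, read 5.99, 6.05, 6.49 and 6.25 with miControl, miR-376c, siControl and siGRB2. In RPL38, RPS9 and RPS14 siControl was the highest array. RPL29 was lowest with siControl instead, at 4.96 against 5.47, 5.50 and 5.53 with miControl, miR-376c and siGRB2, and its 4 probes ran from 0.48 to 0.92. RPSA, the 40S protein also known as the laminin receptor, did likewise by its probe median on this scale, with 6.20, 6.10, 5.85 and 6.16 in the order above. Its brightest probe was lowest with miControl instead, at 6.99 against 7.03 with siControl. Under the median shift RPSA was -0.01 with miControl and 0.01 with siGRB2 against siControl. RPL15, a 60S protein, was 0.47 higher with miControl than with siControl by its probe median, which was 4.11 with siControl. Its probes disagreed: the brighter (6.66 with siControl) differed by 0.13 and the dimmer (1.56 with siControl) by 0.81.

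The paralogs with an L, L1 or AL suffix went different ways. Of 7 detected, 3 were higher with miR-376c than with miControl (42.9%, against 46.4% of all detected probes). Likewise 3 were higher with siGRB2 than with siControl (42.9%, against 60.4%). RPL22L1, the copy of RPL22, read 5.18 with miControl, 5.07 with miR-376c, 5.41 with siControl and 4.86 with siGRB2. It was lowest with siGRB2 and among the lowest members in 4 of the 6 pairs. RPS27L, a copy of RPS27 known as a p53 target, read 4.67, 4.46, 4.60 and 4.90, and was 0.44 higher with siGRB2 than with miR-376c. RPL7L1 read 1.47, 1.38, 0.68 and 1.16, so that siControl stood apart. RPL26L1 read 2.89, 2.84, 3.16 and 3.05. RPL10L, an intronless and nearly identical copy of RPL10 for which probe signal may come from either gene, read 6.34, 6.52, 6.11 and 6.49. RPL36AL read 6.30, 6.51, 6.56 and 6.43, and RPL3L, the muscle copy of RPL3, was dim at -4.09 to -3.95.

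Agreement among probes of the same gene limited what could be read from a single probe. Of the 84 genes, 39 had more than 1 detected probe, 111 probes in all, with up to 9 for RPL21. The range of log2 differences within a gene had a median of 0.09 for siGRB2 against miR-376c, 0.20 for siGRB2 against miControl, 0.26 for miR-376c against miControl, 0.29 for siGRB2 against siControl, 0.34 for miR-376c against siControl and 0.47 for miControl against siControl. All probes of a gene lay on the same side of 0 in 18 of 39 genes for miR-376c against miControl and in 19 for siGRB2 against siControl. The pooled SD within genes was 0.21 and 0.23 in these comparisons, and the SD between the medians of genes was 0.17 and 0.22. In both comparisons, the SD between gene medians was thus no larger than the pooled SD within genes. These SDs are not of the same kind. The first is of medians over all 84 genes, and the second of single probes in the 39 genes with more than 1.

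**Figure D4:**
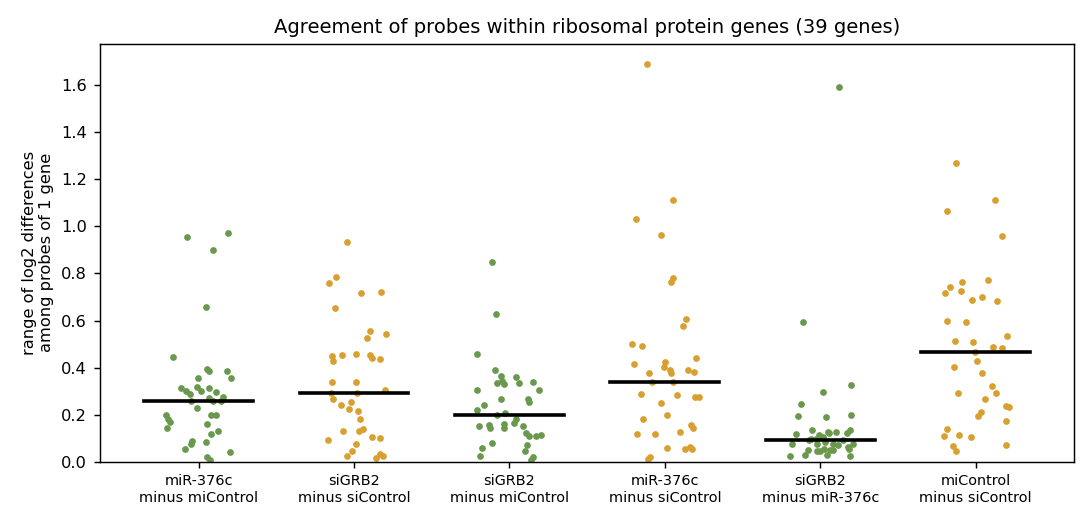
Range of the log2 differences among the probes of 1 gene, for the 39 ribosomal protein genes with more than 1 detected probe, in the 6 pairs of arrays; black lines are medians and orange points the pairs that include siControl. Ranges are smallest for siGRB2 minus miR-376c (median 0.09) and largest for miControl minus siControl (median 0.47), and the outlying gene at 1.59 is RPL10.

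RPL10, a 60S protein added late in subunit maturation, shows the disagreement most plainly. The brighter 3 of its probes read 7.02 to 7.45 with miControl and 7.41 to 7.82 with miR-376c, and differed by 0.37 to 0.39. The fourth read -3.68 with miControl, -4.26 with miR-376c, -2.70 with siControl and -2.71 with siGRB2. This dim probe alone gave the 2-fold values of the family, -1.56 for miR-376c against siControl and 1.55 for siGRB2 against miR-376c, where the other 3 probes gave 0.06 to 0.13 and -0.05 to 0.02. RPS26, a 40S protein at the mRNA exit, had probes at -0.50, 0.40 and 0.44 for siGRB2 against siControl. Their mean levels were 6.81, 4.59 and -3.05 in this order, so the brightest was the lower one. RPL6, a 60S protein, had one at -0.12 and one at 0.59, and RPL22 one at -0.35 and one at 0.43.

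In RPL37 the probes were at 0.12 and -0.78 for miR-376c against miControl. RPL28, a 60S protein, had probes against 3 different transcript records, at 0.21, -0.74 and 0.06. RPL21, a 60S protein, was a counterexample in the pairs with siControl only. All 9 of its probes were lower with siGRB2 than with siControl, by 0.01 to 0.26. They were also all below 0 for miR-376c against siControl (-0.26 to -0.07) and for miControl against siControl (-0.37 to -0.10). With miR-376c against miControl they fell on both sides, from -0.07 to 0.20. Whether probes of these genes also bind the many processed pseudogenes of the family was not tested.

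The members were finally set beside the other parts of the translation machinery, in lists that do not overlap with them. FAU, which encodes a 40S protein under another symbol, differed by 0.18 with miR-376c against miControl and by -0.12 with siGRB2 against siControl. RACK1, a scaffold bound to the 40S subunit, differed by -0.16 and 0.63. Of 19 probes of translation factors and other TOP mRNAs, 7 were higher with miR-376c (median -0.12) and 10 with siGRB2 (median 0.06), each against its control. Ribosome assembly genes, such as NCL and NPM1 of the nucleolus, were higher with miR-376c in 27 of 35 probes (median 0.24) and with siGRB2 in 15 of 35 (median -0.18). Mitochondrial ribosomal proteins, which share the name but form another ribosome, were higher in 55 of 87 probes (median 0.07) and in 44 of 87 (median 0.02). Of all detected probes, 46.4% were higher with miR-376c and 60.4% with siGRB2, each against its control. At 2-fold, 0 probes of these lists passed with miR-376c (1.33% of all detected probes). With siGRB2 2 did (8.23% of all detected probes), 1 higher and 1 lower, both mitochondrial. With 1 array per condition, none of these lists could be told from another by a test.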

How the data were processed

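RNA of 4 transfected HuCCT1 cultures was read on 1 array each, a one-colour Agilent human 44 K design, with 200 ng of RNA per labelling. The authors deposited spot intensity values from Agilent Feature Extraction (version 10.7 per the labels), background-subtracted, on probes laid out on hg19. The authors also deposited a log2 table made in GeneSpring with a shift to the 75th percentile. For the detected probes it equalled the values used here plus a constant per array (0.38 to 0.46), within 0.01 for 100% of probes.

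From the processed intensities, log2 values were taken, 289 to 329 outlier-flagged spots per array were left out, spots of a probe were averaged, and the 75th percentile of all non-control spots was subtracted. A probe was detected where over 0.5 of its spots were flagged well above background. Gene symbols were found through the accession for 25422 of 34127 probes (RefSeq, GRCh38.p14, names only). Python (3.11.15), numpy (2.4.6), pandas (2.3.3), R (4.3.3) and limma (3.58.1) were used, and the calculation was tested on simulated data. All arrays were on the same slide and scan.

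The members and the gene lists were chosen with earlier results of these data known. With 1 array per condition there is no test. The genes named were the stalk proteins and RPSA, the 3 highest and 3 lowest genes of each pair of arrays (median of a gene's probes), genes with a probe of 10 spots, genes whose probes lay over 1 log2 apart, the paralogs, and GRB2. Some items that this rule or the lists would name are not reported here. Alternatives were quantile normalization, a median shift, the percentile over detected probes, the median of the bright probes set to 0, normexp background correction (offset 50), the deposited log2 table, flagged spots kept, 1 value per gene, no paralogs, all member probes, a 1.5-fold limit and, chosen after seeing the data, the brightest probe of each gene.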

Additional observations from a re-analysis of the deposited data

Results flagged for a closer look

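In 2 of the genes named, the treatments differed from their own controls in opposite directions, each by more than the scanner software's error. RPL38 differed by 0.23 with miR-376c against miControl and by -0.40 with siGRB2 against siControl, -0.63 apart. Directly, siGRB2 differed from miR-376c by -0.09 and miControl from siControl by -0.54, so most of this distance lay between the controls. RPS27L differed by -0.22 and 0.30, 0.52 apart. For RPS27L siGRB2 differed from miR-376c by 0.44 and miControl from siControl by 0.08. Each rests on 1 probe and 1 array per condition, and the difference between the treatments was not tested. Under quantile normalization RPL38 was at -0.09 with miR-376c and -0.37 with siGRB2, so the directions were no longer opposite. RPS27L was then at -0.23 with miR-376c and 0.42 with siGRB2. Under the median shift RPS27L was at -0.10 and 0.02, and in the deposited table at -0.18 and 0.22, so that in both at least the miR-376c value was within the scanner error of 0.20.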

How the results depend on the processing

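Of 66 alternative values of the list medians, 47 moved by less than the median SD between spots (0.05 log2) and 17 moved by more. A further 2 changed sign with both the main and the alternative value larger in size than this SD. Some of the 17 also changed sign, with the main or the alternative value smaller in size than it. Quantile normalization gave -0.0603 for miR-376c against miControl, -0.0312 for siGRB2 against miControl and 0.0718 for miControl against siControl. The median shift gave 0.22 for miR-376c against miControl, -0.29 for siGRB2 against siControl, -0.14 for miR-376c against siControl, -0.12 for siGRB2 against miR-376c and -0.44 for miControl against siControl, and it moved the median of all detected probes to 0.09, -0.13, -0.07, -0.06 and -0.17. The percentile over detected probes gave 0.0748 for miR-376c against siControl and -0.10 for miControl against siControl. With the bright probes centred, siGRB2 against siControl was 0.10, miR-376c against siControl 0.12 and miControl against siControl -0.0414. The deposited table gave -0.0795 for siGRB2 against siControl and -0.24 for miControl against siControl. The brightest probe of each gene, chosen after seeing the data, gave 0.20 for miR-376c against miControl, 0.20 for siGRB2 against miControl, -0.0425 for miR-376c against siControl and -0.27 for miControl against siControl. Members 2-fold apart numbered 1 for siGRB2 against siControl and 2 for miControl against siControl under quantile normalization, and 1 for miControl against siControl under the median shift. The share of all detected probes was not taken under these scalings, so these counts cannot be set against it. At 1.5-fold on the 75th percentile scale, members numbered 2, 5, 2, 7 and 12 for miR-376c against miControl, siGRB2 against siControl, siGRB2 against miControl, miR-376c against siControl and miControl against siControl. The shares of all detected probes were 8.92%, 32.1%, 5.81%, 26.1% and 28.6% in the same order. The cause of these shifts was not tested beyond the centring itself. The scanner error of 0.20 and the SD between spots of 0.05 bound what a single array can show, and neither holds the spread between cultures. No paired analysis was possible because there was a single array per transfection.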
